A study of Caenorhabditis elegans with 27 samples.

Results

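The comparison set the 3 input libraries labelled replicate 1 against the 6 input libraries of replicates 2 and 3, out of 27 libraries in the series, by the replicate number in the sample titles alone. The titles give no reason to set number 1 apart from 2 and 3. Whether measured values prompted this split is not recorded. Input is RNA of the whole worm lysate before sucrose gradient centrifugation. The other 18 libraries came from the non-polysomal (NP) and polysomal (P) parts of the gradients. Each replicate number holds 1 library of gld-2(RNAi), 1 of gld-4(RNAi) and 1 of control RNAi, so the RNAi condition could be held as a block. All animals were young adult Caenorhabditis elegans of strain N2, the wild-type laboratory strain, synchronised as starved L1 larvae and kept at 20°C until harvest, 24 h past the middle of the L4 stage, on HT115 bacteria that carried a gld-2 or gld-4 feeding construct or, in control RNAi, the empty pL4440 vector. GLD-2 and GLD-4 are cytoplasmic poly(A) polymerases, and the study used RNAi to compare their effects on mRNA abundance and translation. It describes gld-2(RNAi) animals as sterile and gld-4(RNAi) animals as fertile, and RNAi is a knockdown in all tissues it reaches. Nothing in the labels or methods says whether libraries of the same number came from 1 growth, or libraries of different numbers from separate growths. If a number marks a growth, the comparison is 1 growth against 2, and its p-values measure only the spread between these libraries. The replicate number cannot be told apart from any difference in growth, harvest or library preparation that went with it.

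A C. elegans hermaphrodite makes sperm during its last larval stage, then changes to oocytes and stores the sperm for self-fertilisation. Fertilised eggs spend part of embryogenesis in the uterus, so whole-worm RNA of an adult holds RNA of its embryos, which build the cuticle of the first larva before hatching. The cuticle is a collagen matrix that is made anew at each molt, and several collagen genes are used at particular stages. Lists of genes for these processes were therefore read beside the stage, embryo content and sperm content of each library. The study describes animals with reduced gld-2 as lacking embryos, so in gld-2(RNAi) the embryo lists cannot be read as embryo content. In bulk RNA, fewer cells of a type and less RNA per cell cannot be told apart.

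The input libraries held 12160686 to 18132556 counts. The knockdown fitted the labels in every replicate. gld-2 had 54.3 normalized counts in replicate 1 of gld-2(RNAi), against 137 and 82.1 in replicates 2 and 3, and 779 in replicate 1 of control RNAi, against 1172 and 1472 in replicates 2 and 3. gld-4 had 127 in replicate 1 of gld-4(RNAi), against 280.2 and 255 in replicates 2 and 3, and 1628 in replicate 1 of control RNAi, against 2546 and 2711 in replicates 2 and 3. Normalized counts are counts scaled to a common effective library size by TMM. The yolk protein genes made up 1.35% to 2.34% of the input counts, and yolk is made by adult hermaphrodites. Of 14 genes of male somatic cells only 2, swm-1 and mab-3, had a mean of at least 10 normalized counts. That list summed to 201, 245 and 157 normalized counts in the replicate 1 libraries and to 75.8 to 166 in replicates 2 and 3.

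Within each RNAi condition the replicate 1 library stood apart from the other 2. Across 12166 genes with a mean of at least 10 normalized counts over the 9 input libraries, the SD of the log2 difference between replicate 1 and either other library was 0.914 to 1.176, and between replicates 2 and 3 it was 0.421 to 0.44. Between 19.4% and 26.7% of these genes differed over 2-fold between replicate 1 and another library, and 3.56% to 4.71% between replicates 2 and 3. The same order held in the gradient libraries, where the SD was 0.782 to 1.381 for replicate 1 against another library and 0.276 to 0.355 between replicates 2 and 3. No pair of libraries of the same fraction and RNAi condition agreed within sampling noise (chi-square per degree of freedom at least 7.09). None of these pairs was thus counted as deposited 2 times, and other pairs were not checked.

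**Figure D1:**
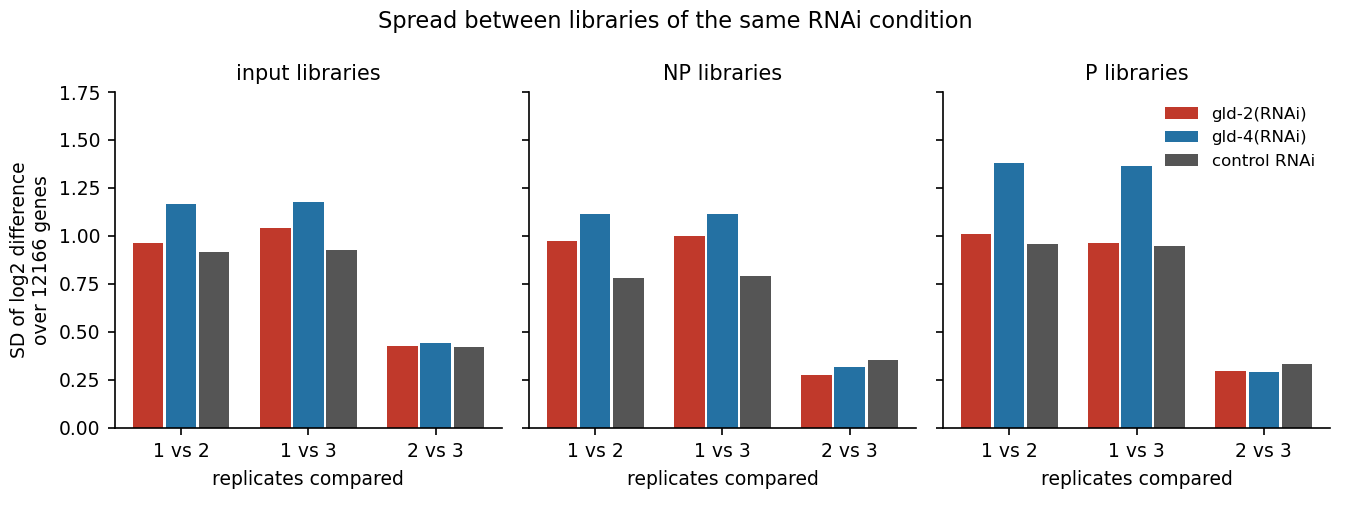
Spread between libraries of the same RNAi condition. Each bar is the SD, over 12166 genes, of the log2 difference between 2 libraries of a condition in the input, NP or P fraction; in the input, bars that involve replicate 1 lie between 0.914 and 1.176 and bars of replicate 2 against 3 between 0.421 and 0.44.

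Each gene was then fitted over the 9 input libraries by edgeR's quasi-likelihood test with the RNAi condition as a block, and called where it differed 2-fold or more with a Benjamini-Hochberg adjusted p no larger than 0.05. In replicate 1, 1865 of 12166 genes were higher (15.3%) and 582 were lower (4.78%), together 20.1%. The adjusted p alone was met by 47.9% of the genes in the input, by 35.7% in NP and by 51.5% in P. For 1674 of the higher and 453 of the lower genes (13.8% and 3.72% of all tested), the replicate 1 library lay beyond both other libraries in every RNAi condition, an arrangement found on the higher side in 25.6% and on the lower side in 24% of all genes tested. The median log2 difference of all genes was -0.02. Without the RNAi block 423 genes were higher and 76 lower. Among the 7408 genes with a mean of at least 100, the study's own minimum, 471 were higher and 157 lower.

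Among called genes with replicate 1 below both others in every condition, the 3 with the largest fall were cuticle genes. cut-3, a cuticlin gene needed for the alae of the first larval stage, had no count in any of the 3 replicate 1 libraries. In replicates 2 and 3 it had 20.7 and 10.5 normalized counts in gld-2(RNAi), 222 and 223 in gld-4(RNAi) and 404 and 406 in control RNAi. Against a floor of 3 counts over the 3 libraries it was at least 198-fold lower in replicate 1, with an edgeR adjusted p of 1.4e-08. The collagen gene col-165 had 0, 1.05 and 1.21 normalized counts in replicate 1 of gld-2(RNAi), gld-4(RNAi) and control RNAi, against 24.4 and 25.8 in gld-2(RNAi), 463 and 454 in gld-4(RNAi) and 759 and 692 in control RNAi of replicates 2 and 3. It rested on 2 counts in replicate 1 and was 557-fold lower (95% exact counting interval 154 to 4600, edgeR adjusted p 2.6e-11). col-74, another collagen gene, also had 2 counts in replicate 1 and was 563-fold lower (95% exact counting interval 156 to 4650). Replicate 1 below both others in every condition was part of the rule that picked these 3 genes. This arrangement was found in 24% of all genes tested. For these 3 genes, replicates 2 and 3 of each condition were closer to each other than to replicate 1. cut-5, a second cuticlin gene of the first larva, had 2 counts in replicate 1 and was 24.1-fold lower, with an interval of 6.5 to 201. Intervals and floors cover counting error only.

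dpy-14, a collagen gene with a role in embryonic morphogenesis, and the linker histone gene hil-7 were far more abundant and were picked by the same rule. dpy-14 had 10.1, 8.43 and 300.0 normalized counts in replicate 1 of gld-2(RNAi), gld-4(RNAi) and control RNAi. In replicates 2 and 3 it had 115 and 137 in gld-2(RNAi), 2535 and 2427 in gld-4(RNAi) and 3259 and 3223 in control RNAi. The fitted log2 difference was -4.51 ± 0.83 (SE, edgeR adjusted p 0.0078). hil-7 had 8.05, 3.16 and 125 in replicate 1 of the 3 conditions, against 75.1 and 73.5, 1046 and 958, and 1318 and 1728 in replicates 2 and 3. Its log2 difference was -4.45 ± 0.71, and both genes lost the call in the input when replicate 2 or replicate 3 was left out (dpy-14 adjusted p 0.11 and 0.13, hil-7 0.059 and 0.083). The other genes among the 10 largest falls, taken from called genes with replicate 1 below both others in every condition, were T04C12.1, phat-5, mtre-1 and T20F5.4. mtre-1 had 1.01, 1.05 and 6.07 normalized counts in replicate 1, against 14.1 and 5.73, 124 and 127, and 195 and 203 in replicates 2 and 3, a log2 difference of -5.30 ± 0.43.

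**Figure D2:**
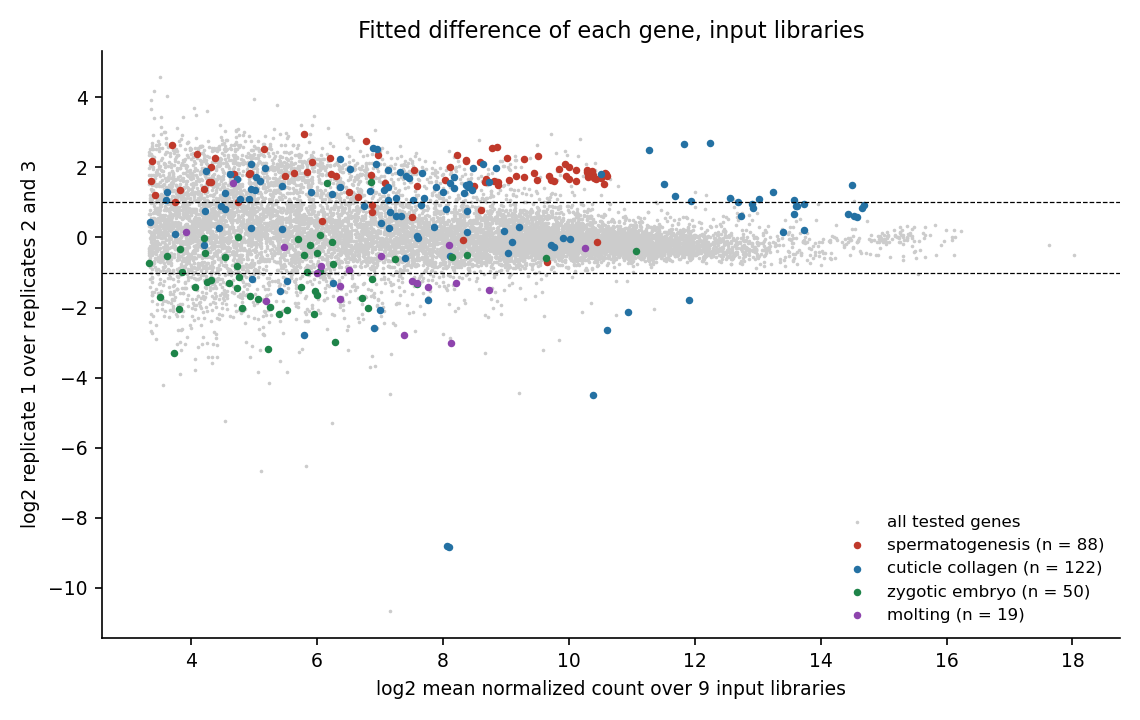
Fitted log2 difference of replicate 1 over replicates 2 and 3 for each of 12166 genes, against the log2 of its mean normalized count over 9 input libraries. Coloured points are members of 4 gene lists and dashed lines mark a 2-fold change; the spermatogenesis points lie mostly above the upper line, and the zygotic embryo and molting points mostly below 0, down to -3.29.

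Part of the genes transcribed in the embryo were lower in replicate 1. Their median log2 difference was -1.21 in gld-2(RNAi), where the study describes no embryos, -2.37 in gld-4(RNAi) and -0.48 in control RNAi. How far these values reflect embryo content was not tested. Of 80 genes of the zygotic embryo, which include lineage regulators and the sdz genes, 50 passed the minimum. Of these, 23 were lower, 2 were higher and 25 were not called, beside 4.78% lower and 15.3% higher of all genes. The median log2 difference was -1.05, beside -0.02 over all genes. end-1, a GATA factor that specifies the endoderm, had 1.01, 0 and 4.86 normalized counts in replicate 1 of gld-2(RNAi), gld-4(RNAi) and control RNAi, against 15 and 22.9, 21.4 and 17.5, and 18.7 and 17.9 in replicates 2 and 3. All 3 replicate 1 libraries lay below the 6 others, and the log2 difference was -3.29 ± 0.60 (edgeR adjusted p 0.00037). The neurogenin gene ngn-1, a neuronal bHLH factor, had 0, 0 and 19.4 in replicate 1, against 2.82 and 8.59, 84.5 and 65.2, and 63 and 93 in replicates 2 and 3. Its groups separated within each condition but overlapped across conditions, and its adjusted p of 0.0023 became 0.0502 without replicate 3. The 2 most abundant members, lin-26 and die-1, had log2 differences of -0.38 ± 0.11 and -0.58 ± 0.13 and were not called. The 2 members that rose were sdz-24 (1.59 ± 0.18) and sdz-27 (1.57 ± 0.24). sdz-24 had 329, 137 and 170.0 normalized counts in replicate 1, against 88.3 and 107, 55.6 and 54.2, and 64 and 42.9 in replicates 2 and 3. The number of lower members was 13 without replicate 1 of gld-4(RNAi), with a median of -0.52, and 29 without replicate 1 of control RNAi, with a median of -1.75. It was 16 without replicate 2 and 10 without replicate 3, and 3 without the RNAi block.

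Of 21 molting genes 19 were tested, 8 were lower and 1 was higher, beside 4.78% and 15.3% of all genes. The median was -1.25 over the 9 libraries and 0.10 within gld-2(RNAi). sym-1, which encodes a leucine-rich repeat protein of the outer extracellular matrix, had 11.1, 20 and 120.2 normalized counts in replicate 1 of gld-2(RNAi), gld-4(RNAi) and control RNAi, against 48.8 and 37.2, 548 and 499.8, and 614 and 610.1 in replicates 2 and 3. It fell by 3.01 ± 0.43 on the log2 scale (edgeR adjusted p 0.00058). noah-1, a component of the embryonic sheath and molting cuticle, had 98.6, 70.6 and 353 in replicate 1, against 118 and 117, 686 and 596, and 895 and 891 in replicates 2 and 3. The difference was -1.501 ± 0.50 with an adjusted p of 0.048, and it was -0.87 without replicate 1 of gld-4(RNAi), which is below the 2-fold limit. The call for noah-1 was lost when any of the 3 libraries of control RNAi was left out (adjusted p 0.070 to 0.10) and when replicate 2 or 3 of gld-4(RNAi) was left out (0.059 and 0.096). lpr-3, a lipocalin of the cuticle surface, had a difference of -2.77 ± 0.76 with an adjusted p of 0.025. This became 0.10 without replicate 1 and 0.055 without replicate 2 of control RNAi, and 0.051 and 0.061 without replicate 2 and replicate 3 of gld-4(RNAi). Of 20 alternative settings in all, 12 lost the call for noah-1 and 9 that for lpr-3. The member that rose was nas-37, an astacin protease needed to shed the old cuticle, at 43.3, 60.1 and 34 in replicate 1, against 16.9 and 16.23, 16 and 15.6, and 15.8 and 10.7 in replicates 2 and 3. The list held 4 to 12 lower members when 1 library was left out, 3 when replicate 2 or replicate 3 was left out and 0 without the RNAi block.

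Of 13 heterochronic genes, which time larval development, 12 were tested, 2 were lower and none was higher, beside 4.78% and 15.3% of all genes. The list median was -0.60. hbl-1, a hunchback-like factor of embryos and early larvae, had 11.1, 59 and 103 normalized counts in replicate 1 of gld-2(RNAi), gld-4(RNAi) and control RNAi, against 86.4 and 72.5, 727 and 640.4, and 787 and 1156 in replicates 2 and 3. It fell by 3.29 ± 0.20 on the log2 scale (edgeR adjusted p 1.1e-08), and by a like amount in each condition (-2.83, -3.53 and -3.23). lin-42, the Period homologue that cycles with the molts, fell by 1.31 ± 0.21 and is also a member of the molting list. The 2 most abundant members, lin-41 (-0.44 ± 0.15) and lin-28 (-0.15 ± 0.11), were not called. lin-29, the factor of the adult switch, had a difference of 0.23 ± 0.35 (adjusted p 0.61).

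**Figure D3:**
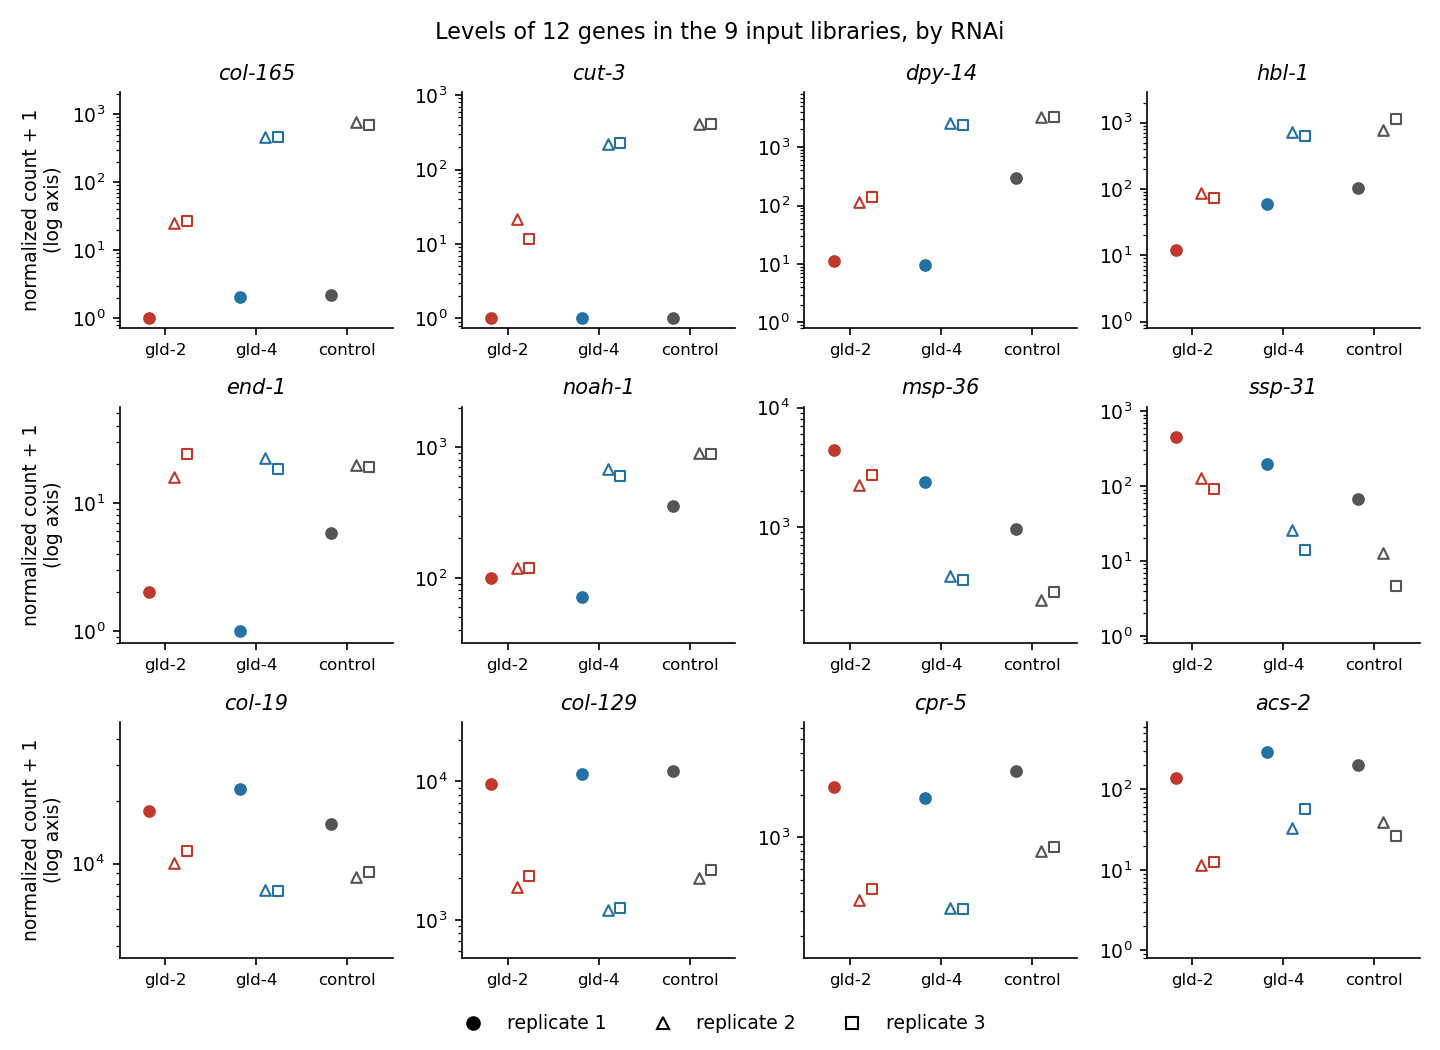
Normalized counts plus 1, on log axes, of 12 genes in the 9 input libraries, by RNAi (gld-2, gld-4 or control). Filled circles are replicate 1 and open symbols replicates 2 and 3; the replicate 1 circle lies below both others of its condition for col-165, cut-3, dpy-14, hbl-1, end-1 and noah-1 and above both for msp-36, ssp-31, col-19, col-129, cpr-5 and acs-2.

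The replicate 1 difference was also set side by side between RNAi conditions. Each condition has 1 replicate 1 library, so the fit takes its spread from replicates 2 and 3 and assumes that the lone library varies like them, and these values compare single libraries rather than conditions. In a fit with a separate replicate 1 term for each condition, 106 genes passed the adjusted p and 2-fold limits with a more positive and 260 with a more negative replicate 1 difference in gld-4(RNAi) than in control RNAi (0.871% and 2.14% of 12166). For gld-2(RNAi) minus control RNAi the numbers were 356 and 430 (2.93% and 3.53%). Both contrasts share the control RNAi libraries, and the fit has 3 residual degrees of freedom. The counts moved with the tool and the scaling. DESeq2 gave 17 and 112 genes for gld-4(RNAi) and 141 and 193 for gld-2(RNAi), and scaling by library size alone gave 9 and 89, and 155 and 128. With library size scaling 90.8% of the gld-4(RNAi) calls were negative, beside 71% in the TMM fit.

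Among the 50 zygotic embryo genes, the median log2 difference of replicate 1 was -1.21 in gld-2(RNAi), -2.37 in gld-4(RNAi) and -0.48 in control RNAi. For dpy-14 the replicate 1 difference was -8.18 in gld-4(RNAi) and -3.43 in control RNAi. his-24, a linker histone H1 gene, had 116 normalized counts in replicate 1 of gld-4(RNAi), against 4061 and 4973 in replicates 2 and 3. In control RNAi it had 3284 in replicate 1, against 4522 and 5706 in replicates 2 and 3. The replicate 1 level of his-24 in gld-4(RNAi) was thus close to the 103 of replicate 1 in gld-2(RNAi), where replicates 2 and 3 had 312 and 402. Over all 9 libraries his-24 was not called (-2.06 ± 0.92, adjusted p 0.13). In the molting list the median was 0.10 in gld-2(RNAi), -1.97 in gld-4(RNAi) and -1.36 in control RNAi. In gld-2(RNAi) the molting genes were already low in replicates 2 and 3. The list summed to 1356 normalized counts in replicate 1 of gld-2(RNAi), against 1374 and 1432 in replicates 2 and 3. In gld-4(RNAi) it summed to 2597 in replicate 1, against 5850.4 and 6019, and in control RNAi to 3043, against 6457 and 7021.

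Spermatogenesis genes were higher in replicate 1 almost throughout. Of 99 genes of the major sperm protein (msp), ssp, nspd and spe families and of other sperm functions, 88 were tested. Of the tested genes, 78 were higher and none was lower, beside 15.3% and 4.78% of all genes. Their median log2 difference was 1.76, beside -0.02 over all genes. Summed over the list, gld-2(RNAi) had 144078 normalized counts in replicate 1, against 67417 and 77549 in replicates 2 and 3. gld-4(RNAi) had 56283 in replicate 1, against 12522 and 12543, and control RNAi had 26803 in replicate 1, against 9188 and 10867. Replicate 1 was thus 1.99 times the mean of replicates 2 and 3 in gld-2(RNAi), 4.49 times in gld-4(RNAi) and 2.67 times in control RNAi. In each condition the replicate 1 sum was the highest of the 3, and the gld-2(RNAi) libraries of replicates 2 and 3 were above all libraries of the other conditions.

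msp-36, a gene of the major sperm protein that drives crawling of the sperm cell, had 4382, 2355 and 951 normalized counts in replicate 1 of gld-2(RNAi), gld-4(RNAi) and control RNAi, against 2258 and 2715, 386 and 358, and 243 and 281 in replicates 2 and 3. The log2 difference was 1.82 ± 0.30 (edgeR adjusted p 0.0022). Within conditions it was 0.82 in gld-2(RNAi), 2.66 in gld-4(RNAi) and 1.86 in control RNAi. msp genes are near-identical copies and only uniquely mapped reads were counted, so the values of single msp genes, msp-36 and msp-59 (1.77 ± 0.28) among them, are uncertain. All 34 msp genes tested were higher, as were 11 of 12 ssp, 9 of 10 nspd and 18 of 25 spe genes, beside 15.3% of all genes. The largest differences in the list were those of ssp-33 (2.96 ± 0.36) and ssp-31 (2.76 ± 0.29). ssp-31, an msp-domain gene, had 452, 194 and 66.8 in replicate 1, against 126 and 90.7, 24.6 and 12.9, and 11.8 and 3.58 in replicates 2 and 3. his-70, a histone H3.3 variant gene, had 332, 79.1 and 27.9 in replicate 1, against 67.6 and 69.7, 11.8 and 16.54, and 12.8 and 17, and was the 1 higher gene of 50 histone genes tested (2.004 ± 0.26).

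The 10 genes not called included spe-48 (-0.71 ± 0.12, adjusted p 0.00026) and the most abundant spe gene, spe-39 (-0.14 ± 0.12), a vesicle trafficking gene used in other tissues too. Genes that set sperm or oocyte fate were not called in either direction. Of the 10 tested, fem-3, which promotes sperm fate, had 389, 2638 and 1385 normalized counts in replicate 1, against 361 and 267, 1536 and 1139, and 762 and 648 in replicates 2 and 3 (0.78 ± 0.15). fog-1, which also promotes sperm fate, had a difference of -0.64 ± 0.15. The 2 tested genes of male soma, swm-1 (0.72 ± 0.18) and mab-3 (0.81 ± 0.38), were not called, and the part of males in the sperm values was not tested. Without the RNAi block none of the 88 genes was called (78 with it), although their median was 1.38. When single libraries were left out, 72 to 78 were called.

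**Figure D4:**
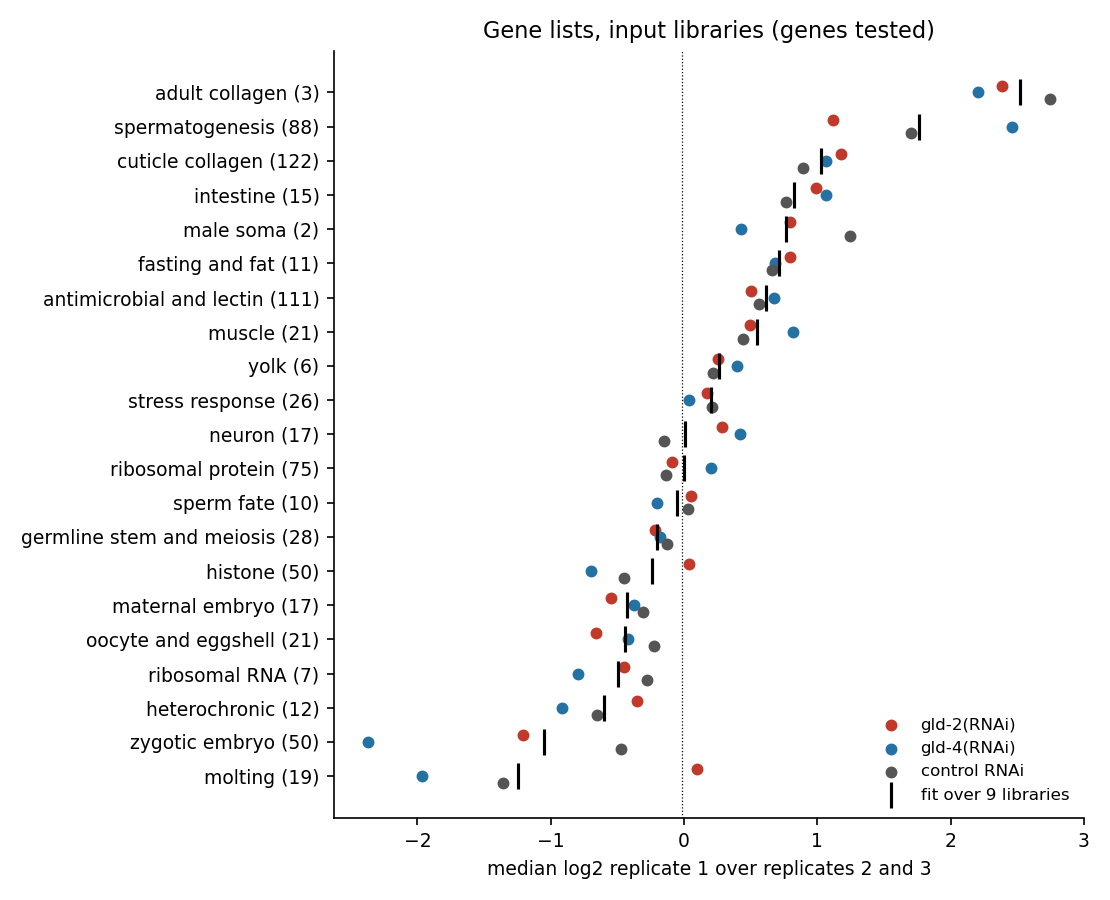
Median log2 difference of replicate 1 over replicates 2 and 3 for 21 gene lists in the input libraries, with the number of genes tested. Coloured points are medians within gld-2(RNAi), gld-4(RNAi) and control RNAi, black bars the fit over 9 libraries and the dotted line the median of all genes (-0.02); spermatogenesis lies at 1.12, 2.46 and 1.70 and zygotic embryo at -1.21, -2.37 and -0.48 in the 3 conditions.

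Cuticle collagens as a family were higher in replicate 1, although a few fell. Of 178 collagen genes 122 were tested. Of these, 62 were higher and 9 were lower, beside 15.3% and 4.78% of all genes. The median log2 difference was 1.03. Summed normalized counts of the family were 463386, 537170.4 and 424398 in replicate 1 of gld-2(RNAi), gld-4(RNAi) and control RNAi, against 256079.6 and 302235, 250381 and 256728, and 252477 and 281792 in replicates 2 and 3. All 3 adult collagen genes of the list rose. col-19, a collagen of the adult cuticle, had 17925, 22924 and 15585 in replicate 1, against 10062 and 11490, 7432 and 7378, and 8598 and 9076 in replicates 2 and 3. Its difference of 1.08 ± 0.14 (edgeR adjusted p 2.3e-05) fell below the 2-fold limit in 2 of 20 alternatives, to 0.78 without replicate 1 of gld-4(RNAi). col-7 had 318, 196 and 312 in replicate 1, against 63.9 and 57.3, 40.6 and 32.2, and 44.3 and 48.3, a difference of 2.52 ± 0.17. col-62 was like it at 2.54 ± 0.20. Both kept a gap between every replicate 1 library and all 6 others.

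The largest increases in the family were those of col-129 and col-139. col-129 had 9522, 11389 and 11959.7 normalized counts in replicate 1 of gld-2(RNAi), gld-4(RNAi) and control RNAi, against 1719 and 2083, 1188 and 1209, and 1997 and 2296 in replicates 2 and 3. The lowest replicate 1 library was thus above the highest of the others, and the difference was 2.70 ± 0.14 (edgeR adjusted p 1.4e-08). col-139 had a difference of 2.68 ± 0.16. The most abundant collagens, col-20 and col-140, had differences of 0.93 ± 0.13 and 0.84 ± 0.13 and were not called. They had at least 32044 normalized counts in each replicate 1 library and at most 26547 in any other.

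None of 21 oocyte and eggshell genes was called, but 15 met the adjusted p threshold with a negative difference, and the list median was -0.44. Of all 12166 genes tested, 2728 met that threshold with a negative difference. oma-1, a regulator of oocyte maturation, had 2649, 7534 and 4521 normalized counts in replicate 1 of gld-2(RNAi), gld-4(RNAi) and control RNAi, against 5106 and 7269, 9655 and 10484, and 6618 and 6912 in replicates 2 and 3 (-0.73 ± 0.15, edgeR adjusted p 0.0013). The replicate 1 library was the lowest of its condition in each case. None of 17 maternal embryo genes was called either (median -0.43), although 12 met the adjusted p threshold with a negative difference. In this list pie-1, the germline blastomere repressor, had a difference of -0.61 ± 0.13 and mex-3, a maternal RNA-binding protein, one of 0.06 ± 0.10. The 28 genes of germline stem cells and meiosis had a median of -0.21 and no call. Its largest positive member was fbf-2, a PUF regulator of germline stem cells, at 774, 519.8 and 608 in replicate 1, against 426 and 419, 286 and 322, and 355 and 341 in replicates 2 and 3 (0.82 ± 0.11).

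The yolk genes were not called in the input, with a median of 0.26. vit-1 had 18718, 28947 and 22650.2 normalized counts in replicate 1 of gld-2(RNAi), gld-4(RNAi) and control RNAi, against 9132 and 9192, 13356 and 13599, and 14235 and 13679 in replicates 2 and 3 (0.95 ± 0.11, edgeR adjusted p 4.9e-06). The most abundant yolk gene, vit-2, had a difference of 0.23 ± 0.12. The genes vit-3, vit-4 and vit-5 are similar in sequence, and with unique mapping their single values are uncertain.

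Genes of the intestine rose in part. Of 15 tested, 7 were higher and none was lower, beside 15.3% and 4.78% of all genes, with a median of 0.82. The cathepsin B-like protease genes cpr-5 and cpr-4 led this list. cpr-5 had 2292, 1891 and 2954 normalized counts in replicate 1 of gld-2(RNAi), gld-4(RNAi) and control RNAi, against 359.7 and 431, 311 and 309, and 795 and 856 in replicates 2 and 3. The difference was 2.33 ± 0.13 (edgeR adjusted p 4.8e-09), and for cpr-4 it was 2.30 ± 0.12. The groups of both genes did not overlap. asp-1, an aspartyl protease and the most abundant member, rose by 1.05 ± 0.12, but its value fell just under the 2-fold limit in 6 of 20 alternatives. Among these were leaving out replicate 2 of gld-2(RNAi) (0.99) and replicate 1 of gld-4(RNAi) (0.97). They also included leaving out replicate 2 in all conditions (0.94) and DESeq2 (0.995). In the list of fasting and fat metabolism, 4 of 11 tested were higher and none was lower, beside 15.3% and 4.78% of all genes (median 0.72). acs-2, an acyl-CoA synthetase that is induced by fasting, had 137, 291 and 202 in replicate 1, against 10.3 and 11.5, 32.1 and 56, and 38.4 and 25 in replicates 2 and 3 (2.95 ± 0.23, adjusted p 1.6e-07). fat-6, a stearoyl-CoA desaturase, rose by 1.198 ± 0.13. Its call was lost in 2 of 20 alternatives, among them without replicate 1 of gld-4(RNAi) (0.99).

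Of 21 muscle genes, 1 was higher, beside 15.3% of all genes, and the median was 0.55. The higher gene was tnc-2, a troponin C of the pharynx, at 262, 269 and 253 normalized counts in replicate 1 of gld-2(RNAi), gld-4(RNAi) and control RNAi, against 90.2 and 78.3, 117 and 78.1, and 110.3 and 78.7 in replicates 2 and 3 (1.51 ± 0.17, edgeR adjusted p 5.9e-06). unc-54, the major body wall myosin, had 0.88 ± 0.11 and was not called. By adjusted p alone, 15 of the 21 muscle genes had a positive difference and none a negative one. In 14 of the 21, replicate 1 lay above both others in every condition, beside 25.6% of all genes. None of 17 neuronal genes was called (median 0.01). None of 75 ribosomal protein genes was called (median 0.003). The adjusted p threshold alone was met by 3 of them with a positive difference, beside 3104 of all 12166 genes. None of 7 rRNA genes was called either (median -0.49). Of these, 5 met the adjusted p threshold with a negative difference, beside 2728 of all 12166 genes. Residual rRNA made up 1.85% to 3.99% of the counts in poly(A)-selected libraries.

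In the stress list 5 of 26 tested were higher and 2 were lower, shares near those of all genes (15.3% and 4.78%), so the list as a whole is no result and only its members are described. The small heat shock genes hsp-16.48 and hsp-16.49 rose most. hsp-16.48 had 207, 101 and 107 normalized counts in replicate 1 of gld-2(RNAi), gld-4(RNAi) and control RNAi, against 40.4 and 24.8, 41.7 and 60.6, and 7.88 and 16.103 in replicates 2 and 3. Its difference was 2.25 ± 0.35 (edgeR adjusted p 0.00023), and that of hsp-16.49 was 2.32 ± 0.38. The pair is near-identical in sequence, and with reads that fit both left out by unique mapping their single values are uncertain. sip-1, a small heat shock protein of oocytes and embryos, had 26684, 24794 and 32947 in replicate 1, against 45243 and 67387, 58351 and 68372, and 48963 and 58698 in replicates 2 and 3 (-1.04 ± 0.16). It passed the 2-fold limit narrowly, and fell short of it in 6 of 20 alternatives. Among these were leaving out replicate 3 of gld-2(RNAi) (-0.95), and replicate 1 (-0.89) or replicate 3 (-0.98) of gld-4(RNAi). They also included leaving out replicate 3 in all conditions (-0.86) and library size scaling (-0.95). mtl-2, a metallothionein, fell by 1.53 ± 0.29.

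Of 364 antimicrobial and lectin genes 111 were tested, 28 were higher and 3 were lower, beside 15.3% and 4.78% of all genes, with a median of 0.62. The C-type lectin gene clec-54 had 42.2, 22.1 and 23.1 normalized counts in replicate 1 of gld-2(RNAi), gld-4(RNAi) and control RNAi, against 1.88 and 2.86, 1.07 and 5.51, and 4.92 and 4.47 in replicates 2 and 3 (2.999 ± 0.43). clec-196 had 3.02, 11.6 and 131, against 55.4 and 52.5, 257 and 235.2, and 308 and 269 (-2.45 ± 0.57, edgeR adjusted p 0.010). Its call was lost in 3 of 20 alternatives, among them without replicate 1 of gld-2(RNAi) (adjusted p 0.067). clec-196 was low in replicate 1 of both knockdowns and less so in control RNAi.

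Among called genes with replicate 1 above both others in every condition, the 10 with the largest increase have only sequence names, and most were low in replicates 2 and 3. T22F3.11 had 81.5, 79.1 and 94.7 normalized counts in replicate 1 of gld-2(RNAi), gld-4(RNAi) and control RNAi, against 7.51 and 6.68, 4.28 and 6.43, and 5.91 and 1.79 in replicates 2 and 3 (3.95 ± 0.31, edgeR adjusted p 1.5e-07). F46C5.1 had 86.5, 162 and 75.3, against 1.88 and 6.68, 5.35 and 19.3, and 4.92 and 8.05 (3.79 ± 0.33). E02C12.6 had 34.2, 29.5 and 34 in replicate 1 and at most 6.42 in the others. T22F3.11, E02C12.6, B0024.4 and C23G10.11 each stayed within a 2-fold range over the 3 replicate 1 libraries. C29E4.14, B0261.5, ZK688.12, ZK1098.9 and F55C5.2 were instead highest in replicate 1 of gld-2(RNAi). F55C5.2 had 469.8 there, 10.5 in replicate 1 of gld-4(RNAi) and 6.07 in that of control RNAi. In replicates 2 and 3 it had 32.9 and 28.6, 1.07 and 3.68, and 1.97 and 0.895. In control RNAi, ZK688.12 rested on 1 raw count in replicate 1 against 1 in replicates 2 and 3. B0261.5 and ZK1098.9 each rested on 3 against 1, so the order of these genes there lies within counting error. ZK688.12, ZK1098.9 and F55C5.2 each lost the call in 1 alternative.

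The same comparison in the gradient libraries, which are other libraries with the same replicate numbers, was fitted for NP and P alone. In the NP libraries 1382 genes were higher in replicate 1 (11.4%) and 640 lower (5.26%), and in the P libraries 1550 were higher (12.7%) and 1144 lower (9.4%). Scaling by library size alone raised the lower share of calls to 45.3% in NP, beside 31.7% with TMM, and to 59.6% in P, beside 42.5%. TMM factors of replicate 1 were 0.862 to 0.939 in NP, against 0.992 to 1.125 in replicates 2 and 3, and 0.777 to 0.952 in P, against 0.923 to 1.234. Of the 1865 genes higher in the input, 1249 were also higher in NP (67%, and 90.4% of those higher in NP) and 1322 in P (70.9%, and 85.3% of those higher in P). Of the 582 lower genes, 409 were also lower in NP (70.3%, and 63.9% of those lower in NP) and 505 in P (86.8%, and 44.1% of those lower in P). No gene called in the input was called the opposite way in NP, and 7 of the higher genes were lower in P.

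The spermatogenesis list had a median of 2.12 in NP and 2.31 in P, against 1.76 in the input, and the zygotic embryo list -1.16 and -1.70, against -1.05. Among single genes, col-165 had log2 differences of -7.91 in NP and -8.22 in P, hbl-1 -2.33 and -3.38, and acs-2 2.79 and 3.11. Other genes had values nearer to 0 in the gradient libraries. hsp-16.48 had 0.10 in NP and 0.17 in P, against 2.25 in the input, and sip-1 had -0.21 and 0.11, against -1.04. Ribosomal protein genes had a median of 0.87 in NP and 0.77 in P, against 0.003 in the input, and oocyte and eggshell genes 0.12 and -0.11, against -0.44. Differences between fractions were not tested.

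**Figure D5:**
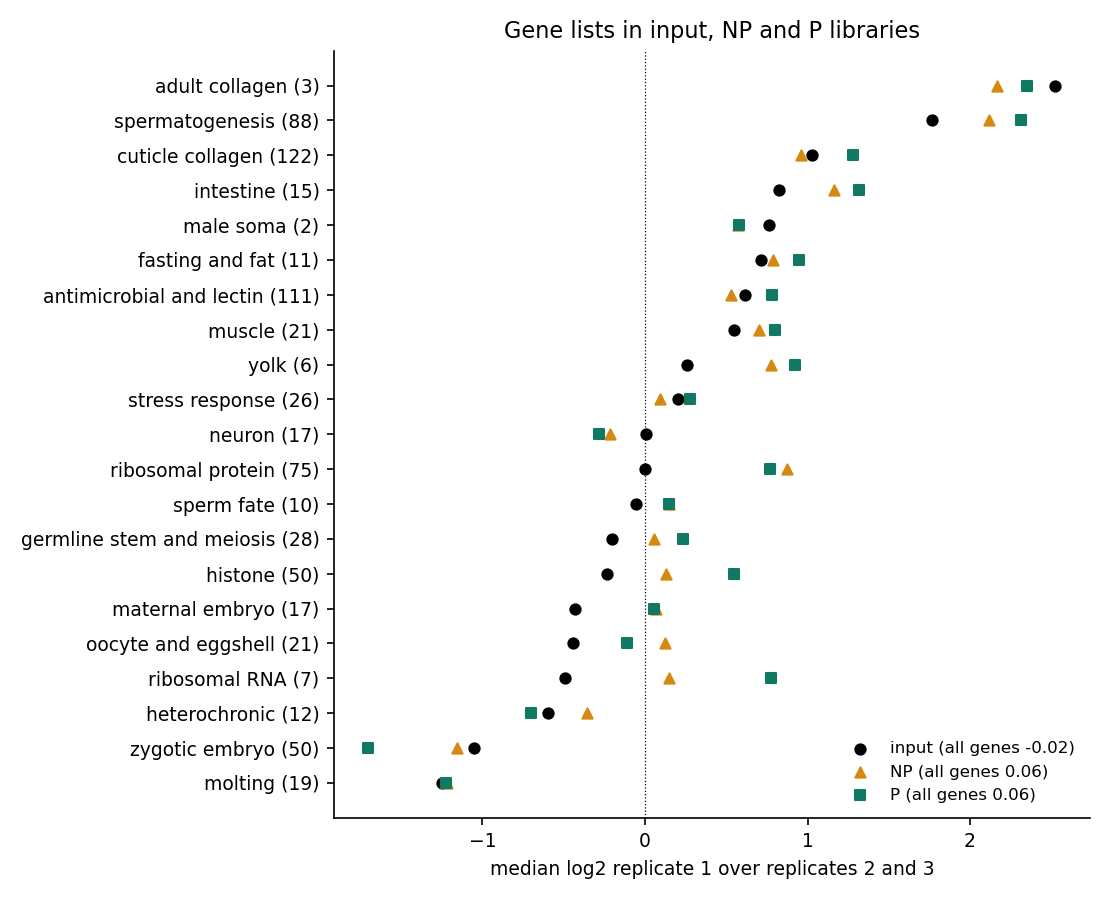
Median log2 difference of replicate 1 over replicates 2 and 3 for 21 gene lists in NP (triangles), P (squares) and input (circles) libraries, each fraction fitted alone. Spermatogenesis lies at 2.12, 2.31 and 1.76 and zygotic embryo at -1.16, -1.70 and -1.05, while ribosomal protein genes lie at 0.87 and 0.77 in NP and P and at 0.003 in the input.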

How the data were processed

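Per the labels and methods, whole-worm RNA was poly(A) selected and sequenced as 75-bp single reads. The authors removed adapters, aligned unique reads to WS220 with TopHat2 and counted them per gene with featureCounts (Subread 1.4.0). The deposited table holds raw counts of 45461 features in 27 libraries. The authors' 6 comparison tables of fold changes and p-values (DESeq), with 72 per-sample columns, were not used. Names came from RefSeq locus tags (44080 matched) of a later assembly, so positions are not given. The methods name a strand-specific kit and the results non-strand-specific sequencing, so overlapping and antisense genes are uncertain.

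Input, NP and P were each fitted by edgeR 4.0.16 (TMM, robust quasi-likelihood test, two-sided, Benjamini-Hochberg adjustment) on genes with a mean of at least 10 normalized counts over 9 input libraries; the study's minimum is 100. SE is the log2 difference divided by the root of F. Named genes were the 10 largest called changes per direction with replicate 1 beyond both others in every condition, up to 6 members per list (most abundant and most changed) and gld-2 and gld-4; not all are printed. The members and lists were chosen with earlier results of these data known. Alternatives were DESeq2 1.42.0, library size scaling, other minimums, no fold limit, no RNAi block and leaving out libraries, replicates or conditions. No mitochondrially encoded gene was matched, so that list was void. The fits were tested on simulated data. R was 4.3.3, limma 3.58.1, Python 3.11.15, pandas 2.3.3 and matplotlib 3.10.9.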

Additional observations from a re-analysis of the deposited data

Results flagged for a closer look

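For 17 of the named genes the replicate 1 difference in an RNAi condition minus that in control RNAi passed an adjusted p of 0.05 and a 2-fold limit for the interaction term of edgeR's quasi-likelihood fit, adjusted over all genes. Each condition has 1 replicate 1 library, which the fit assumes to vary like replicates 2 and 3, so these values compare single libraries and do not show a difference between conditions. Both contrasts share the control RNAi libraries. Groups of 3 were not tested for single outlying samples. Values are the log2 difference of replicate 1 over replicates 2 and 3 in the RNAi condition minus that in control RNAi, ± SE.

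In gld-2(RNAi), 10 named genes passed both limits. The replicate 1 difference was more positive for the cuticle genes noah-1 (1.08 ± 0.29) and lpr-3 (3.06 ± 0.49), for the muscle genes myo-3 (1.02 ± 0.23) and tnt-3 (1.59 ± 0.31) and for the touch neuron tubulin gene mec-7 (1.83 ± 0.55). It was more negative for the sperm genes msp-36 (-1.04 ± 0.23) and ssp-33 (-2.14 ± 0.61), for the lectin genes clec-196 (-2.97 ± 0.68) and clec-266 (-3.19 ± 0.38) and for his-24 (-1.16 ± 0.27). For msp-36 and ssp-33 replicate 1 was above replicates 2 and 3 in both conditions.

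In gld-4(RNAi), 12 named genes passed both limits. The replicate 1 difference was more negative for dpy-14 (-4.75 ± 0.41), hil-7 (-4.65 ± 0.56), noah-1 (-1.84 ± 0.29), sym-1 (-2.35 ± 0.39), clec-196 (-3.25 ± 0.46), clec-266 (-3.26 ± 0.30) and his-24 (-4.64 ± 0.26). It was also more negative for ngn-1 (-7.22 ± 1.68), whose fitted value depends on the prior count since replicate 1 of gld-4(RNAi) had 0 counts, and for hsp-16.49 (-1.92 ± 0.50) and hsp-16.48 (-2.15 ± 0.48), which rose in replicate 1 over all conditions. It was more positive for tnt-3 (1.13 ± 0.30) and mtl-2 (1.16 ± 0.36).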

How the results depend on the processing

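No paired analysis was possible because the comparison is between the replicate numbers themselves. Of 53 named genes past the thresholds, 24 passed them under each alternative that gave them a value (20, or 19 for genes under the minimum mean of 100), none turned direction, and 25 lost the call without the RNAi block. With the adjusted p alone, the input had 3104 higher and 2728 lower genes, NP 2760 and 1580, P 3731 and 2536, the gld-2(RNAi) difference 867 negative and the gld-4(RNAi) difference 162 positive. At a minimum mean of 100 the input had 471 and 157, NP 398 and 120, P 475 and 331, the gld-2(RNAi) difference 121 positive, and the gld-4(RNAi) difference 64 and 122. With at least 1 count, 1338 genes were lower in NP and 1840 in P. With library size scaling, 983 were lower in NP and 1809 in P, and the differences had 155 positive and 128 negative genes in gld-2(RNAi) and 9 and 89 in gld-4(RNAi). DESeq2 gave 141 and 193, and 17 and 112. Without the RNAi block the input had 423 and 76, NP 150 and 48, P 420 and 331. Leaving out libraries or a replicate gave 341 (without replicate 3) to 706 (without replicate 1 of control RNAi) lower genes in the input, 244 to 838 in NP, 678 to 1251 in P, and 57 (without replicate 3 of control RNAi) to 109 positive genes in the gld-4(RNAi) difference. The interaction has no value when a replicate 1 library or a whole replicate is left out. The cause of these shifts was not tested. Library size scaling moved the median log2 difference of all genes to 0.06 in the input, -0.19 in NP and -0.28 in P, beside -0.02, 0.06 and 0.06 with TMM. Genes with few counts in replicate 1 are limited by depth.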

Other observations

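Gene classes with at least 10 tested members, grouped by the letters of their names after the values were seen, add families outside the lists. Among classes that were higher in replicate 1, 9 of 16 bestrophin channel (best) genes were called, as were 9 of 16 neprilysin-like peptidase (nep) genes, 6 of 10 P-glycoprotein transporter (pgp) genes, 14 of 36 cytochrome P450 (cyp) genes and 13 of 34 UDP-glucuronosyltransferase (ugt) genes, beside 15.3% of all genes. Among classes that were lower, 30 of 53 F-box B (fbxb) genes were called, with a median log2 difference of -1.58. Of 28 F-box C (fbxc) genes 8 were lower, as were 12 of 37 homeobox (ceh) genes, 8 of 19 Skp1-related (skr) genes and 4 of 12 cuticlin-like (cutl) genes, beside 4.78% of all genes. Members of these families are similar in sequence, and with unique mapping the values of single members are uncertain.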
